A study of Mus musculus with 4 samples.

Results

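CTCF peaks were examined in 6 windows of the mouse genome that carry the imprinted genes H19 and Igf2, Kcnq1ot1, Dlk1 and Meg3, Peg3, Igf2r, and Gnas. A peak was included when its midpoint lay in one of the windows, whatever its score. This gave 45 of the 31086 plasmablast peaks and 56 of the 36381 B cell peaks. The peaks came from chromatin immunoprecipitation sequencing of C57BL/6 mice aged 6 weeks, with 1 CTCF library per cell type. Plasmablasts, the dividing antibody-secreting descendants of activated B cells, were CD138+ spleen cells sorted 3 days after 50 µg of lipopolysaccharide was injected retro-orbitally. B cells were the CD43- fraction of spleens, for which the labels give no injection. The plasmablast libraries were run on a HiSeq instrument and the B cell libraries on a Genome Analyzer II, so cell type and instrument cannot be told apart. Neither cell type had a replicate CTCF library, so the cell types were described and not tested against each other. The labels give no number of mice, and peak lists hold no expression values with which to check the sorted cell types.

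Imprinted genes are expressed mainly from the copy inherited from a single parent, and differential DNA methylation of control regions marks the parental copies. CTCF is a zinc finger protein that binds DNA, blocks contact between enhancers and promoters and anchors chromatin loops. The best known case is the control region between Igf2, a fetal growth factor gene, and H19, a noncoding RNA gene. There CTCF binds the unmethylated maternal copy and keeps downstream enhancers from Igf2, while methylation prevents binding to the paternal copy. Whether a peak came from the maternal or the paternal copy cannot be told from these lists. Gene expression was not measured in these libraries.

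Most CTCF sites of the imprinted windows were listed in both cell types. A site was called shared when its plasmablast and B cell peaks overlapped by at least 1 bp. Of the plasmablast peaks in the windows, 42 of 45 were shared (93.3%, exact 95% binomial interval 81.7 to 98.6%), against 79.5% of the whole plasmablast list. Of the B cell peaks, 42 of 56 were shared (75.0%, interval 61.6 to 85.6%), against 67.9% of the whole B cell list. Both shares were higher than those of the whole lists, and neither difference was tested. The B cell interval includes the share of the whole B cell list. Leaving out 1 window at a time gave B cell shares from 69.6% (without Kcnq1ot1) to 79.2% (without Igf2r). By window, the B cell share was above that of the whole list only in H19/Igf2 (82.6%) and Kcnq1ot1 (100%). It was below it in Dlk1/Meg3 (62.5%), Igf2r (50.0%) and Gnas (57.1%), and Peg3 had no B cell peak. With only peaks above the median kept in both lists, the B cell share was 66.7%, against 67.7% over the whole lists. These intervals cover counting error only, and neighbouring peaks of a locus need not be independent. The windows held 59 distinct sites in all, of which 42 were shared, 3 were listed only in plasmablasts and 14 only in B cells.

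**Figure D1:**
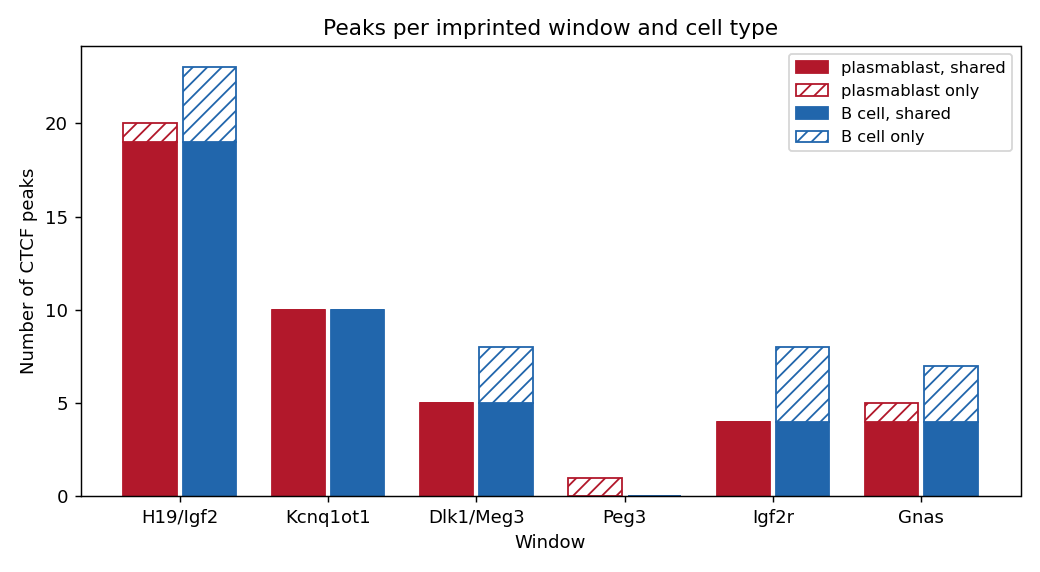
Number of CTCF peaks in each imprinted window (y axis), with the plasmablast bar left of the B cell bar; solid parts are shared peaks and hatched parts are peaks of 1 list only. The H19/Igf2 window has the tallest bars, with 20 plasmablast and 23 B cell peaks, all 10 Kcnq1ot1 sites are shared, and Peg3 has 1 plasmablast peak and no B cell peak.

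Taken over all windows together the sites were of middling strength, but the windows differed. Each peak carries the authors' own score, whose unit is not stated, and strength was therefore read as the percentile of that score within the peak's own list. The median percentile was 52.4 for the 45 plasmablast peaks and 58.8 for the 56 B cell peaks. Leaving out 1 window at a time gave plasmablast medians from 48.2 (without Kcnq1ot1) to 68.3 (without H19/Igf2). The B cell medians then ran from 50.7 (without Kcnq1ot1) to 62.2 (without Gnas). Single windows had medians from 13.0 (Peg3, 1 peak) to 73.2 (Dlk1/Meg3) in plasmablasts. In B cells they ranged from 30.2 (Gnas) to 74.1 (Kcnq1ot1). Above the median of their own list lay 25 of the 45 plasmablast peaks and 33 of the 56 B cell peaks. In the whole lists the shares were 50% and 50.2%, as the median sets them. All 25 of these plasmablast peaks were shared (89.8% of such peaks in the whole list), and so were 32 of the 33 B cell peaks (93.9% of such peaks in the whole list). Above percentile 90 lay 1 of the 45 plasmablast peaks, against 10% of all plasmablast peaks, and 3 of the 56 B cell peaks, against 10.1% of all B cell peaks. No site lay above percentile 90 in both cell types. The plasmablast peak and 1 of the B cell peaks lay only just above that limit.

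**Figure D2:**
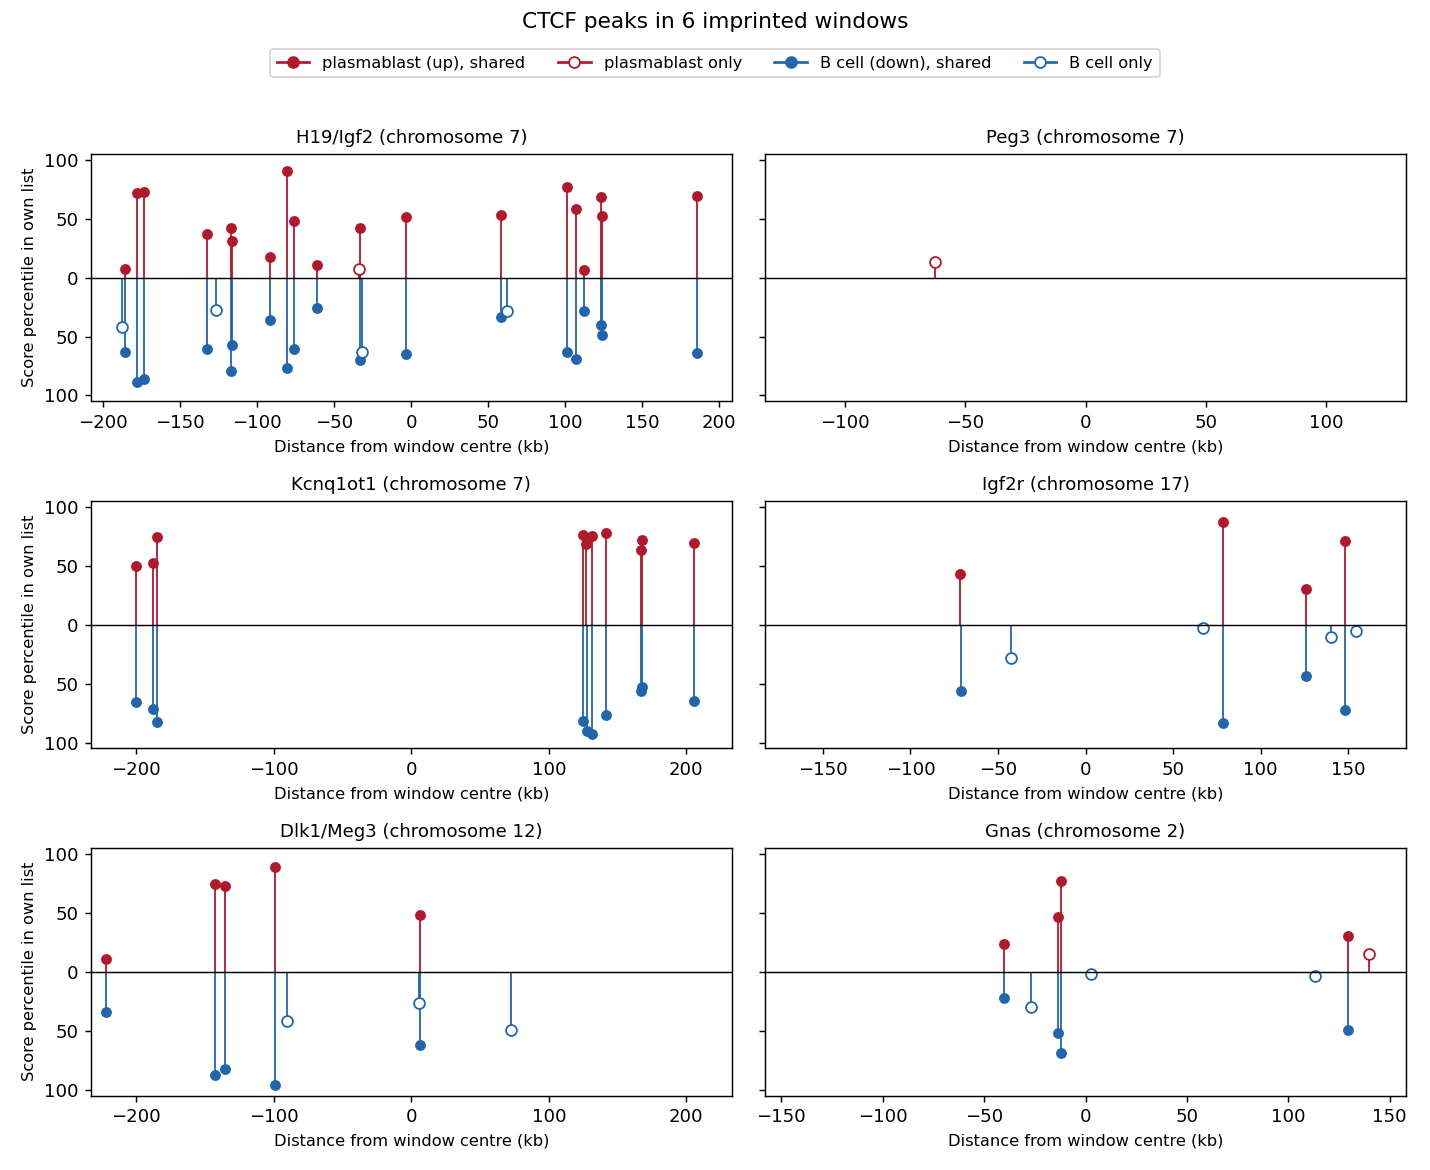
CTCF peaks along the 6 windows, with distance from the window centre in kb on the x axis and the percentile of the score in the peak's own list on the y axis, plasmablasts upwards and B cells downwards; filled circles are shared peaks and open circles are peaks of 1 list only. Most filled circles are paired up and down, most open circles are short and on the B cell side, and the Kcnq1ot1 window has a wide stretch without peaks between its 3 first and 7 last sites.

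The H19/Igf2 window (mm9 chromosome 7, 149600000 to 150000000) held the most sites. It had 20 plasmablast peaks, or 50.0 per Mb against 14.0 per Mb over chromosome 7 as spanned by the peaks. It had 23 B cell peaks, or 57.5 per Mb against 16.6 per Mb over the chromosome. Of these, 19 sites were shared, 1 was listed in plasmablasts only and 4 in B cells only. Plasmablast peaks of the window scored 5.5 to 55.4 and B cell peaks scored 28.7 to 211.2.

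The highest scoring H19/Igf2 site was not the same in the cell types. In plasmablasts it lay at 149718950 to 149719128, with a score of 55.4 at percentile 90.1, where the overlapping B cell peak scored 149.1 at percentile 76.4 and ranked 4th of the 19 shared sites. In B cells the highest lay at 149621528 to 149621832, with a score of 211.2, where the plasmablast peak scored 34.7. The percentiles of that site were 71.7 in plasmablasts and 89.0 in B cells, and it ranked 4th among the shared plasmablast peaks. A neighbouring site, with a plasmablast peak at 149626551 to 149626729, was also among the strong sites of the window, with scores of 35.6 in plasmablasts and 195.4 in B cells. Its percentiles were 72.7 in plasmablasts and 86.1 in B cells.

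The shared sites with the largest percentile gaps of all 42 lay in the H19/Igf2 window. The plasmablast peak at 149614197 to 149614375 scored 5.9, at percentile 7.70, and the B cell peak there scored 97.2, at percentile 63.2. The difference, plasmablast minus B cell, was -55.5 points. In the other direction, the plasmablast peak at 149922953 to 149923131 scored 31.7, at percentile 68.1, and the B cell peak scored 44.5, at percentile 40.1, a difference of 28.0 points. The plasmablast site was thus the 6th strongest of the 19 shared sites and the B cell site the 15th. The lists differ in length, so a difference of percentiles describes rank and does not show a change in binding.

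A close group of peaks in the same window was placed differently in the cell types. Plasmablasts had peaks at 149766167 to 149766345 (score 5.9, percentile 7.70) and at 149766599 to 149766777 (score 15.7, percentile 42.4). B cells had peaks at 149766510 to 149766814 (score 120.4, percentile 69.6) and at 149767544 to 149767848 (score 95.4, percentile 62.7). The second plasmablast peak and the first B cell peak overlapped, and the outer peak on either side was listed in 1 cell type only. The midpoint of the unshared plasmablast peak lay 406 bp from that of the nearest B cell peak, and that of the unshared B cell peak 1008 bp from that of the nearest plasmablast peak. Peaks were 179 bp wide in plasmablasts and 305 bp in B cells. If midpoints within 500 bp were matched instead, the unshared plasmablast peak would count as shared. The unshared B cell peak was the only unshared peak of the 6 windows that lay above the median of its list. Over the whole lists, 10.2% of the plasmablast peaks and 6.1% of the B cell peaks above the median were unshared. The H19 control region is known for several CTCF sites in a row. Whether these peaks lie in it was not determined, since no annotation of mm9 was used here.

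The other H19/Igf2 peaks of 1 list were B cell peaks of low score. They lay at 149611806 to 149612110 (score 47.2, percentile 42.0), 149673205 to 149673509 (29.6, percentile 27.2) and 149861666 to 149861970 (30.6, percentile 28.2). The nearest plasmablast midpoints were 2328, 6061 and 3577 bp away, so none of these was a peak displaced by a few peak widths.

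H19/Igf2 also held pairs of shared sites less than 2 kb apart. The pair from 149682886 to 149683980 scored 15.7 and 11.4 in plasmablasts, at percentiles 42.4 and 31.1. The same pair scored 161.2 and 79.7 in B cells, at percentiles 79.1 and 57.3. The pair from 149922953 to 149923957 scored 31.7 and 20.8 in plasmablasts, at percentiles 68.1 and 52.4, against 44.5 and 60.2 in B cells, at percentiles 40.1 and 49.1. The first pair was thus ranked lower in plasmablasts than in B cells at both sites, and the second higher at both. Within the second pair the first site scored higher in plasmablasts and the second site scored higher in B cells. Over the 6 windows, 10 of 45 plasmablast peaks (22.2%, against 12% of the whole list) and 12 of 56 B cell peaks (21.4%, against 10.3% of the whole list) had a neighbour in the same list within 2 kb.

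The remaining H19/Igf2 sites in chromosome order were as follows. Between 149667207 and 149738678 the plasmablast peaks not yet given scored 13.5, 7.8, 18.5 and 6.4, where the B cell peaks scored 89.8, 38.9, 88.0 and 28.7. The percentiles of these sites were 37.2, 17.5, 48.2 and 10.3 in plasmablasts, against 61.0, 35.9, 60.3 and 26.1 in B cells. All 4 were therefore below the plasmablast median, and 2 of the 4 were above the B cell median. The site at 149796576 to 149796754 was intermediate in both, at percentile 51.8 in plasmablasts and 64.8 in B cells.

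From 149858152 onwards the order of ranks was different. The plasmablast peak at 149858152 to 149858330 scored 21.5, at percentile 53.5, against 36.1 and percentile 33.7 in B cells. At 149900698 to 149900876 the plasmablast score was 39.7, at percentile 77.2, against 96.3 and percentile 63.0 in B cells. The last site of the window, at 149985448 to 149985626, scored 32.6 in plasmablasts, at percentile 69.1, against 99.1 and percentile 63.8 in B cells. These 3 sites ranked higher in plasmablasts. The sites at 149906709 and 149912000 ranked lower there, at percentiles 58.2 and 6.12 in plasmablasts and 69.4 and 28.2 in B cells.

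The Kcnq1ot1 window (chromosome 7, 150300000 to 150750000) was the only one of the 6 in which the lists held the same sites. Kcnq1ot1 is a paternally expressed noncoding RNA that silences neighbouring genes in cis, among them Cdkn1c, an inhibitor of the cell cycle, which lies close to it in the RefSeq gene order. All 10 plasmablast and all 10 B cell peaks were shared, against 79.5% and 67.9% of the whole lists. Of these, 9 plasmablast and 10 B cell peaks lay above the median of their own list. Among such peaks of the whole lists, 89.8% in plasmablasts and 93.9% in B cells were shared, which is near the shares here. The median percentile was 70.8 in plasmablasts and 74.1 in B cells. Plasmablast peaks spanned percentiles 49.9 to 78.1 and B cell peaks 52.6 to 92.6, so the plasmablast peaks had the narrower range. The sites stood in separate groups, 3 between 150324803 and 150339994 and 7 from 150649901 onwards, with a gap of 310.1 kb between the plasmablast midpoints on either side.

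The strongest Kcnq1ot1 sites differed between the cell types. In B cells they lay at 150655922 to 150656226 (score 232.5, percentile 92.6) and 150652274 to 150652578 (score 216.7, just above percentile 90). The plasmablast peaks at these sites scored 37.9 and 31.9, at percentiles 75.2 and 68.3. The plasmablast peak with the highest score lay at 150666517 to 150666695 (40.6, percentile 78.1), where B cells scored 151.9 at percentile 77.1. The sites that led in B cells were 3rd and 7th in plasmablasts, and the site that led in plasmablasts was 5th in B cells. The 4 highest plasmablast scores were close together, at 40.6, 38.5, 37.9 and 37.4, and come from 1 library.

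The weakest Kcnq1ot1 sites of B cells were a pair 838 bp apart in plasmablasts. At 150691881 to 150692059 plasmablasts scored 27.9, at percentile 63.2, against 75.9 and percentile 55.9 in B cells. At 150692719 to 150692897 plasmablasts scored 35.1, at percentile 72.1, against 67.6 and percentile 52.6 in B cells. The second had the largest percentile difference of the window in favour of plasmablasts, 19.5 points. The site at 150652327 to 150652505 had the largest in the other direction, -21.7 points.

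The other Kcnq1ot1 sites were of middle to high rank in both cell types. The first 3 scored 19.4, 20.8 and 37.4 in plasmablasts, at percentiles 49.9, 52.4 and 74.7, against 104.7, 126.9 and 176.9 in B cells, at percentiles 65.4, 71.2 and 82.4. All 3 ranked lower in plasmablasts, and their order was the same in both cell types. The site at 150649901 to 150650079 lay at percentile 75.9 in plasmablasts and 82.1 in B cells, and the last, at 150730380 to 150730558, at percentile 69.6 in plasmablasts and 64.4 in B cells.

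The Dlk1/Meg3 window (chromosome 12, 110550000 to 111000000) had 5 plasmablast peaks, all shared, and 8 B cell peaks, of which 62.5% were shared. Over the whole lists, 79.5% of plasmablast and 67.9% of B cell peaks were shared. Dlk1 encodes a membrane protein related to Notch ligands and is expressed from the paternal copy, whereas Meg3 is a noncoding RNA expressed from the maternal copy. The strongest site was the same in both cell types. It scored 53.1 in plasmablasts (110676044 to 110676222, percentile 88.7) and 255.6 in B cells (110675952 to 110676256, percentile 95.8), the highest B cell score in the 6 windows. The sites at 110632134 and 110639508 followed, with scores of 37.6 and 36.0 in plasmablasts and 201.0 and 176.0 in B cells. Their percentiles were 74.9 and 73.2 in plasmablasts and 87.2 and 82.2 in B cells.

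The 5 shared Dlk1/Meg3 sites were in the same order of score in both cell types, and all 5 had a lower percentile in plasmablasts. Only 34% of all shared sites had a higher percentile in plasmablasts in the own lists. The 5 were also lower when ranked among shared sites only, where 48.7% of all shared sites were higher in plasmablasts. The 4th site in order of score, at 110781186 to 110781364, scored 18.5 at percentile 48.2 in plasmablasts and 93.5 at percentile 62.2 in B cells. The weakest, at 110553168 to 110553346, scored 6.6 at percentile 11.1 in plasmablasts and 37.0 at percentile 34.4 in B cells, which was the largest difference of the window, -23.3 points. Over the whole B cell list 67.9% of all peaks were shared, but 93.9% of those above the median, so unshared peaks were mostly weak. The 3 Dlk1/Meg3 peaks listed only in B cells likewise all lay below the B cell median. They were at 110684312 to 110684616 (score 47.2), 110780276 to 110780580 (28.7) and 110847294 to 110847598 (60.2, percentile 49.1). The last was 66171 bp from the nearest plasmablast midpoint. The second formed a pair with the 4th shared site, 836 bp away, and no plasmablast counterpart of it was listed.

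The Peg3 window (chromosome 7, 6550000 to 6800000) was nearly without peaks. Peg3 encodes a zinc finger protein and is expressed from the paternal copy. Plasmablasts had 1 peak there, at 6612439 to 6612617, with a score of 6.9 at percentile 13.0, and B cells had none. The nearest B cell midpoint was 133492 bp away. The plasmablast peaks flanking the window lay 411.0 kb apart and the B cell peaks flanking it 392.1 kb apart. In plasmablasts the window had 4.00 peaks per Mb, against 14.0 per Mb over chromosome 7. The other window below the density of its own chromosome in that list was Igf2r, with 11.4 per Mb against 15.1 per Mb over chromosome 17. In B cells every window except Peg3 was denser in peaks than its chromosome. The depth of the libraries is unknown, so the lists do not show that a site they leave out was unbound.

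The Igf2r window (chromosome 17, 12750000 to 13100000) had 4 plasmablast peaks and 8 B cell peaks. Igf2r encodes the receptor that clears IGF2 from outside the cell and is expressed from the maternal copy in most mouse tissues. Airn, the antisense RNA that silences its paternal copy, is its neighbour in the RefSeq gene order. All 4 plasmablast peaks were shared, against 79.5% of the whole plasmablast list. Of the B cell peaks 50.0% were shared, against 67.9% of the whole B cell list. The strongest site was the same in both cell types, at 13003450 to 13003628 in plasmablasts (score 51.1, percentile 87.3) and 13003392 to 13003696 in B cells (score 183.4, percentile 83.7). It was the only Igf2r site with a higher percentile in plasmablasts when ranked in the own lists, whereas 3 of the 4 were higher in plasmablasts when ranked among shared sites only.

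The other shared Igf2r sites kept the same order in the cell types. The site at 13073157 to 13073335 scored 34.4 in plasmablasts and 130.6 in B cells, at percentile 71.2 in plasmablasts and 72.1 in B cells. The site at 12853492 to 12853670 scored 15.8 in plasmablasts and 77.8 in B cells, at percentile 42.8 in plasmablasts and 56.6 in B cells. The weakest, at 13051106 to 13051284, scored 11.2 in plasmablasts and 49.1 in B cells, at percentile 30.5 in plasmablasts and 43.2 in B cells. The 4 peaks listed only in B cells were weaker than all of these. Their scores were 30.6, 13.9, 18.5 and 15.7 in chromosome order, and the highest of them, at 12882506 to 12882810, lay at percentile 28.2. The nearest plasmablast midpoints were between 6420 and 29077 bp away. Weak unshared peaks were not particular to this window. Over the whole B cell list 67.9% of all peaks were shared, but 93.9% of those above the median.

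The Gnas window (chromosome 2, 174000000 to 174300000) had 5 plasmablast peaks and 7 B cell peaks, of which 4 sites were shared. Shared peaks made up 80.0% of the plasmablast and 57.1% of the B cell peaks, against 79.5% and 67.9% of the whole lists. Gnas encodes the stimulatory G protein alpha subunit in a complex locus with both maternally and paternally expressed transcripts. The strongest site was again the same, at 174137721 to 174137899 in plasmablasts (score 39.9, percentile 77.4) and 174137675 to 174137979 in B cells (score 117.6, percentile 68.9). Its neighbour 1251 bp away in plasmablasts was the second strongest in both, with a score of 17.4 at percentile 46.2 in plasmablasts and 65.8 at percentile 51.8 in B cells. This pair was therefore led by the same member in both cell types, unlike the H19/Igf2 pair at 149922953.

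The other Gnas peaks lay below the median of their own list. The shared site at 174279347 to 174279525 scored 11.2 at percentile 30.5 in plasmablasts and 61.1 at percentile 49.6 in B cells. The shared site at 174109584 to 174109762 scored 9.3 at percentile 23.4 in plasmablasts and 25.9 at percentile 22.4 in B cells. The plasmablast peak at 174289648 to 174289826, with a score of 7.3 at percentile 14.9, was unshared, and the nearest B cell midpoint lay 10319 bp away. The 3 peaks listed only in B cells scored 32.4, 13.0 and 14.8, and the highest, at 174122815 to 174123119, lay at percentile 30.2.

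**Figure D3:**
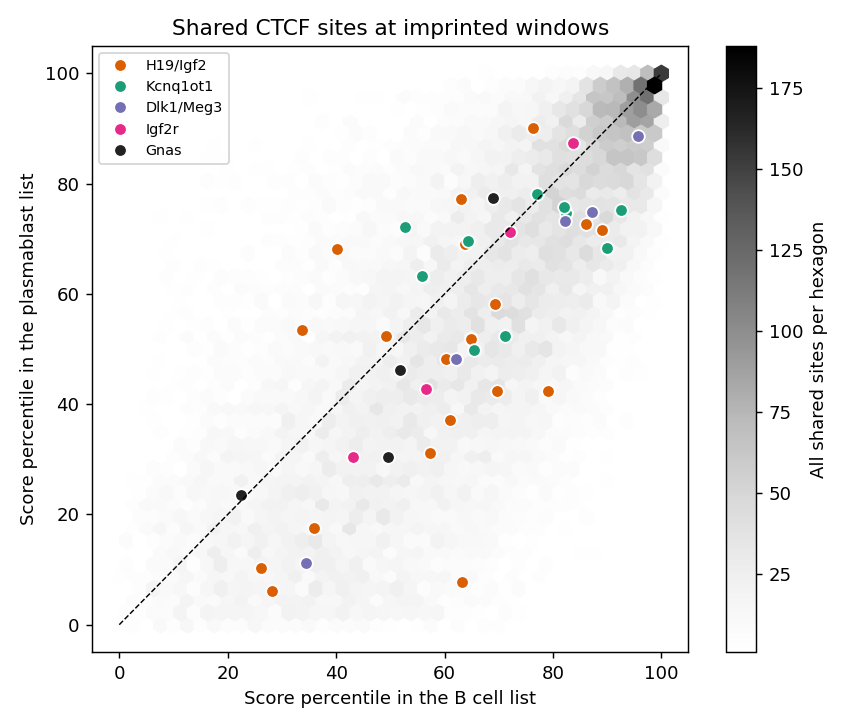
Score percentile in the plasmablast list (y axis) against the score percentile in the B cell list (x axis) for the 42 shared sites of the imprinted windows, coloured by window, over all 24702 shared sites in grey; the dashed line marks equal percentiles. Of the 42 sites, 13 lie above the line, and the site farthest below it is an H19/Igf2 site at percentile 7.70 in plasmablasts and 63.2 in B cells.

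Across the 42 shared sites the ranks of the cell types ran together about as they did genome-wide. The Spearman rank correlation of the scores was 0.71 over the 42 sites and 0.70 over all 24702 shared sites. It was 0.53 over the 19 H19/Igf2 sites and 0.41 over the 10 Kcnq1ot1 sites. In Dlk1/Meg3, Igf2r and Gnas, with 5, 4 and 4 shared sites, the order was identical. These correlations are across sites of the same libraries, which are not replicates.

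The percentile was higher in plasmablasts at 13 of the 42 shared sites (31.0%), against 34% of all shared sites. The median difference, plasmablast minus B cell, was -12.2 points (quartiles -18.2 and 2.71) over the 42 sites and -7.16 points (quartiles -21.3 and 4.30) over all shared sites. Without the H19/Igf2 window the median was -7.71 points over the other 23 sites. In the own lists, the distance from the value of all shared sites thus rested largely on that window. The B cell list holds more weak unshared peaks, which raises the percentiles of its shared sites. With percentiles taken among the shared sites only, the median difference was -3.60 points in the imprinted windows and -0.45 over all shared sites, and 16 of 42 sites (38.1%, against 48.7% of all) were higher in plasmablasts. On this scale the median without H19/Igf2 was -2.53 points, still below that of all shared sites. Plasmablast ranks more than 20 points lower occurred at 8 of the 42 sites, a smaller share than the 26.9% of all shared sites, of which 6 were in H19/Igf2. Ranks more than 20 points higher occurred at 1 of the 42 (2.38%, against 8.12% of all shared sites).

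**Figure D4:**
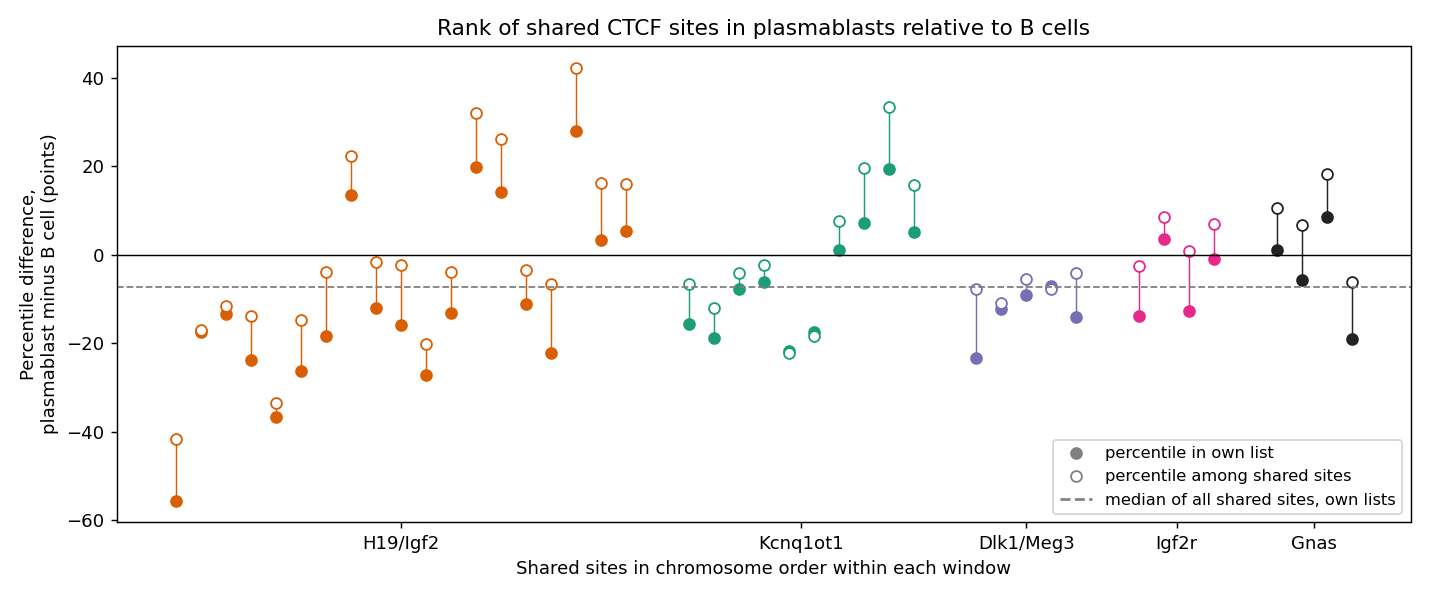
Percentile difference, plasmablast minus B cell, in points (y axis) for each of the 42 shared sites in chromosome order within its window (x axis); filled circles use percentiles in the own list, open circles percentiles among shared sites, and the dashed line is the median of all shared sites. The H19/Igf2 sites spread most widely, from -55.5 to 28.0 points on the own-list scale, and the 5 Dlk1/Meg3 sites all lie below 0 on both scales.

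Beyond 9 of the 12 window bounds the first peak was the same shared site in both lists, and all 9 had a lower percentile in plasmablasts when ranked in the own lists. On that scale only 34% of all shared sites had a higher percentile in plasmablasts. Ranks among shared sites only are not given for the 9. Of these 9, 2 lay above the median of both lists, 3 below both and 4 above the B cell median only. The member closest to a bound was the Dlk1/Meg3 site at 110553168, 3.26 kb inside by its plasmablast midpoint. The closest peak outside was an unshared plasmablast peak at 150293077 to 150293255, 6.83 kb before the Kcnq1ot1 window, with a score of 7.7. The shared sites beyond the bounds ranged widely. At 73.3 kb before H19/Igf2 a site scored 1.8 in plasmablasts, at percentile 0.048, and 185.2 in B cells, at percentile 84.1. After Kcnq1ot1 the first site scored 49.8 in plasmablasts, at percentile 86.3, and 222.3 in B cells, at percentile 90.9. At 191.3 kb after Dlk1/Meg3 a site was low in both, at percentile 26.1 in plasmablasts and 28.2 in B cells.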

How the data were processed

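The peak score in the deposited files is the authors' own value, with no stated unit or normalization. The submitters' processing notes name the build mm9 and the tools Bowtie and HOMER. Versions, thresholds, the use of the input and any pooling were not given in the sources used here. A list of peaks was analysed for 1 CTCF library per cell type. The input libraries were not analysed here. Peaks were 179 bp wide in plasmablasts, except 1 peak, and 305 bp in B cells. Starts were read as BED and shifted by 1.

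Depth is unknown, so scores were only ranked within their list, ties at their average rank. An overlap of at least 1 bp gave 24702 shared peaks in either list, each with 1 partner, and bedtools 2.31.1 gave the same number. The overlap step was also run on plasmablast peaks displaced by less than their width, against the same list. Such peaks must overlap and are equally wide, so this checked the code only. Chromosome density used the span between the first and last peak. Named peaks are the strongest shared site of each window, the largest rank differences, runs within 2 kb, and unshared peaks above the median or, failing these, the highest; other members were added for completeness. Windows and choices were made with earlier results of these data known. Gene names come from the window labels and a RefSeq table on GRCm38, which held all 8 genes and gave their order only. No mm9 sequence was used, so none is printed. Alternatives are given in the closing section. Python 3.11.15, numpy 2.4.6, pandas 2.3.3, scipy 1.17.1 and matplotlib 3.10.9 were used.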

Additional observations from a re-analysis of the deposited data

How the results depend on the processing

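Of 73 alternatives, 68 stayed within the 95% interval of the value reported (for numbers of peaks, within 1.5 times) and 5 moved. For shares the interval was the binomial one, and for medians it was read from the ranked values of the peaks or sites. The intervals of the medians are wide, from 42.8 to 69.6 for the plasmablast percentile. A shift of that median from 52.4 to 68.3 without H19/Igf2 therefore counted as staying within. A change of sign was possible only for the 11 alternatives of the median percentile difference, and none of these changed sign. Of peaks above the median score of their own list, 100% of the plasmablast peaks and 97.0% of the B cell peaks were shared, against 93.3% and 75.0% of all members. Over the whole lists above the median it was 89.8% in plasmablasts and 93.9% in B cells. With peaks above the median in both lists, 88.0% of the plasmablast and 66.7% of the B cell members were shared, against 79.5% and 67.7% over the whole lists. Without the H19/Igf2 window 25 plasmablast and 33 B cell peaks were left, against 45 and 56. The median percentile difference of -12.2 points was -3.60 with percentiles among shared sites only and -7.71 without the H19/Igf2 window. Over all alternatives the shared percentage ran from 86.7 to 100% in plasmablasts and from 66.7 to 97.0% in B cells. No paired analysis was possible because each cell type had 1 CTCF library, which also leaves no replicate to omit. The unknown depth of the libraries limits what an unlisted peak can show.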

Other observations

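In both windows of distal chromosome 7, the ranks of shared sites differed between the sides of the window centre, a split chosen after the values were seen and not tested. In H19/Igf2, 1 of the 12 shared sites before the centre had a higher percentile in plasmablasts, with a median difference of -17.9 points, plasmablast minus B cell. After the centre it was 5 of 7, with a median of 5.29 points. In Kcnq1ot1 it was 0 of 3 before the centre, with a median of -15.5 points, and 4 of 7 after it, with a median of 1.08 points. With percentiles among shared sites only, the H19/Igf2 medians were -12.6 and 16.2 points and the Kcnq1ot1 medians -6.64 and 7.57 points, with the same counts of sites. Of all shared sites, 34% were higher in plasmablasts in the own lists and 48.7% among shared sites only. The Kcnq1ot1 counts rest on only 3 and 7 sites. Dlk1/Meg3 and Igf2r had 1 shared site each on one side of the centre, and so had Gnas, which left too few for such a comparison.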
